A study of Mus musculus with 11 samples.

Results

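The developmental homeobox and paired genes outside the Hox clusters encode patterning transcription factors, and 45 of them were chosen by symbol from 12 families (Pax, Lhx, Dlx, sine oculis homeobox, Irx, Emx, En, Gbx, Otx, Meis, Pitx and Msx). All 45 were in the deposited table, where they account for 46 of 21534 gene regions, because Meis2 has 2 regions. The table reports how DNA contacts lamin B1, an intermediate filament of the lamina under the nuclear envelope, measured by DamID sequencing. In this assay the bacterial DNA adenine methyltransferase Dam is fused to LMNB1 and marks DNA near the lamina, while untethered Dam marks accessible DNA. The cells were primary oligodendrocyte precursor cells from the brain cortex of C57BL/6 mice at postnatal day 7, labelled WT. A lentivirus delivered Dam-LMNB1 or Dam for 1 day, after which the cells grew for 72 h in the medium labelled T3, which drives differentiation (OL), or in the medium labelled PF, which keeps them proliferating (OPC). Scores were available for 3 OL Dam-LMNB1 libraries (18, 19 and 20) and 3 OPC Dam-LMNB1 libraries (8, 9 and 10). Each was taken by the authors against the Dam libraries of its own condition together, which were 3 in OL and 2 in OPC. The marker genes of these cells cannot check the cell type here, since the assay reads DNA and not RNA.

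Homeobox proteins bind DNA through a helix-turn-helix domain, and Pax proteins through a paired domain, which some of them carry together with a homeodomain. Each family sets position or cell identity in the embryo, and most members are silent in any given mature cell type. In many tissues such silent genes are held by Polycomb complexes, which place trimethylation on lysine 27 of histone H3 across CpG-rich promoters, whereas DNA at the lamina is typically gene-poor, low in CpG and held by other heterochromatin marks. In the oligodendrocyte lineage several of these factors, among them Pax6 and the Dlx genes, are known for the progenitors and neurons from which the lineage is set apart.

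The promoter letters of 4 members are shown as examples, which do not stand for the other members. Lhx8 was the member with the highest scores, Lhx2 the member with the lowest OL score and Pax6 a member that fell in OL. Gbx2 rose in OL, with the smallest rise that passed the test. Each window runs 5′ to 3′ over 250 bases before to 50 bases after the gene start (RefSeq, GRCm38.p6), with each CG dinucleotide, the site of cytosine methylation in mammals, in capitals. The positions are chr3:154330511-154330810 (minus strand) for Lhx8, chr2:38351058-38351357 (plus) for Lhx2, chr2:105668646-105668945 (plus) for Pax6 and chr1:89931127-89931426 (minus) for Gbx2.
Lhx8: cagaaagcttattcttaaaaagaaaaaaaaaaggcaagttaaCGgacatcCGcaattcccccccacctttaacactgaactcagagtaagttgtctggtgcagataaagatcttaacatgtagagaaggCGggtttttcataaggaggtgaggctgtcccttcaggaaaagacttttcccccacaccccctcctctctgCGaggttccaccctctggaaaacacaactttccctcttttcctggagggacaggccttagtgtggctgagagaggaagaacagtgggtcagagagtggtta
Lhx2: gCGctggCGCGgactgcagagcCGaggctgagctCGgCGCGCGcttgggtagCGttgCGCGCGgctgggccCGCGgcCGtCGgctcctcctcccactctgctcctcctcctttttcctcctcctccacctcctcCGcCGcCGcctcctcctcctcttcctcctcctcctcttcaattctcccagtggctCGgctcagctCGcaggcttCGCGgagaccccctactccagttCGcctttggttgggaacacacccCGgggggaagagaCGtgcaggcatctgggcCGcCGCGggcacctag
Pax6: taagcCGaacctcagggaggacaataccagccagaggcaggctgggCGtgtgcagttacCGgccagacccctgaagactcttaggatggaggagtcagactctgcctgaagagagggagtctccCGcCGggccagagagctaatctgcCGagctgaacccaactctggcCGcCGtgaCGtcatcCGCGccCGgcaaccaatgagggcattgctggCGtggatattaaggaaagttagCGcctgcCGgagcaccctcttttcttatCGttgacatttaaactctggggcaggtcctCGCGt
Gbx2: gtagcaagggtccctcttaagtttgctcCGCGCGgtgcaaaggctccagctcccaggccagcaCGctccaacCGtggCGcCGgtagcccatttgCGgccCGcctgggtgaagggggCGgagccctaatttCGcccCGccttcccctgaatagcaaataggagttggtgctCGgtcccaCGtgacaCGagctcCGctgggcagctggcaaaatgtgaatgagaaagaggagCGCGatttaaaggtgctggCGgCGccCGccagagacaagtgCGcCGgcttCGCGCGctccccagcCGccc
The Lhx8 window held 4 CG, the fewest of the 31 members with a window, and 78.7% of the 14748 protein-coding genes compared had at least as many. The windows of Lhx2, Pax6 and Gbx2 held 29, 18 and 27 CG, counts reached by 18.5%, 44.8% and 22.4% of those genes. Over the 31 members the median was 22 CG, against 15 CG over the protein-coding genes, and 17 of the 31 members (54.8%) had at least 20 CG, against 39.8% of the genes. The motif GATC, which Dam methylates and which reads the same on both strands, was present in the window of 12 of the 31 members (38.7%) and of 45.7% of the genes. Members with more CG tended to have lower scores, but not all did. Irx4 held 31 CG with means of −0.36 in OL and −0.20 in OPC, and Lhx9 held 6 CG with means of −1.05 in OL and −1.19 in OPC. The Spearman rho between the CG count and the score was −0.53 in OL and −0.41 in OPC over 31 members. The same rho was −0.48 in OL and −0.48 in OPC over all 14748 genes. This is a description across genes, which share libraries and base composition and in part overlap.

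Scores were deposited with values on both sides of 0 and no stated log base, so they are given in score units and differences are never folds. A score above 0 is read as more Dam-LMNB1 than Dam methylation over a gene with its flanks, since 70.5% of the matched regions start within 100 bp of a point 10000 bp before the gene and 85.9% end within 100 bp of a point 2000 bp after it. Over all regions the mean score lay between −0.88 and −0.79 in the OL libraries and between −0.94 and −0.92 in the OPC libraries. OL library 18 was the highest of the 3 OL libraries in 28 of the 46 member regions (60.9%), close to its share over all regions (59.2%). Read depth is unknown, so no counting error could be given. Of the member regions, 22 (47.8%) overlapped another region of the table, compared with 63.9% of all regions, so some values share DNA with a neighbouring or antisense gene. Coordinates of regions are those of the table (mm10), and a score can differ through Dam-LMNB1 or through Dam, which cannot be told apart here.

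The first question was whether these genes lay at the lamina in either condition. Nearly all scored below 0. In OL, 45 of the 46 regions had a mean below 0 at an adjusted p under 0.05 (limma, Benjamini-Hochberg over all regions), where 70.9% of all regions did so, and 0 were above 0, where 25.9% of all regions were. Without adjustment, the count above 0 in OL was also 0. In OPC, 45 regions were below 0, against 71.4% of all regions, and 1 was above 0, against 25.5%. The same 45 regions lay below 0 in each of the 6 libraries, and the 1 region above 0 in all 6 was that of Lhx8.

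The member median was close to that of all regions, while more members lay below −1. The median was −1.48 in OL and −1.55 in OPC, beside −1.47 in OL and −1.54 in OPC over all regions. A mean below −1 was found for 80.4% of the members in OL and 82.6% in OPC, against 60.4% of all regions in OL and 60.4% in OPC. The range of the members was narrower than that of all regions. The interquartile range of the member means was 0.72 in OL and 0.63 in OPC, against 2.25 in OL and 2.35 in OPC over all regions. None of the 46 reached 0.5 in either condition, while 22.3% of all regions were above 0.5 in OL and 21.8% in OPC. At the low end, the lowest member mean was −2.17 in OL and −2.27 in OPC, whereas 10% of all regions lay below −2.35 in OL and below −2.49 in OPC. A mean from −1 to 0 was found for 8 members in OL (17.4%) and 7 in OPC (15.2%), against 12.2% of all regions in OL and 12.6% in OPC. No test was made for the members as a list.

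**Figure D1:**
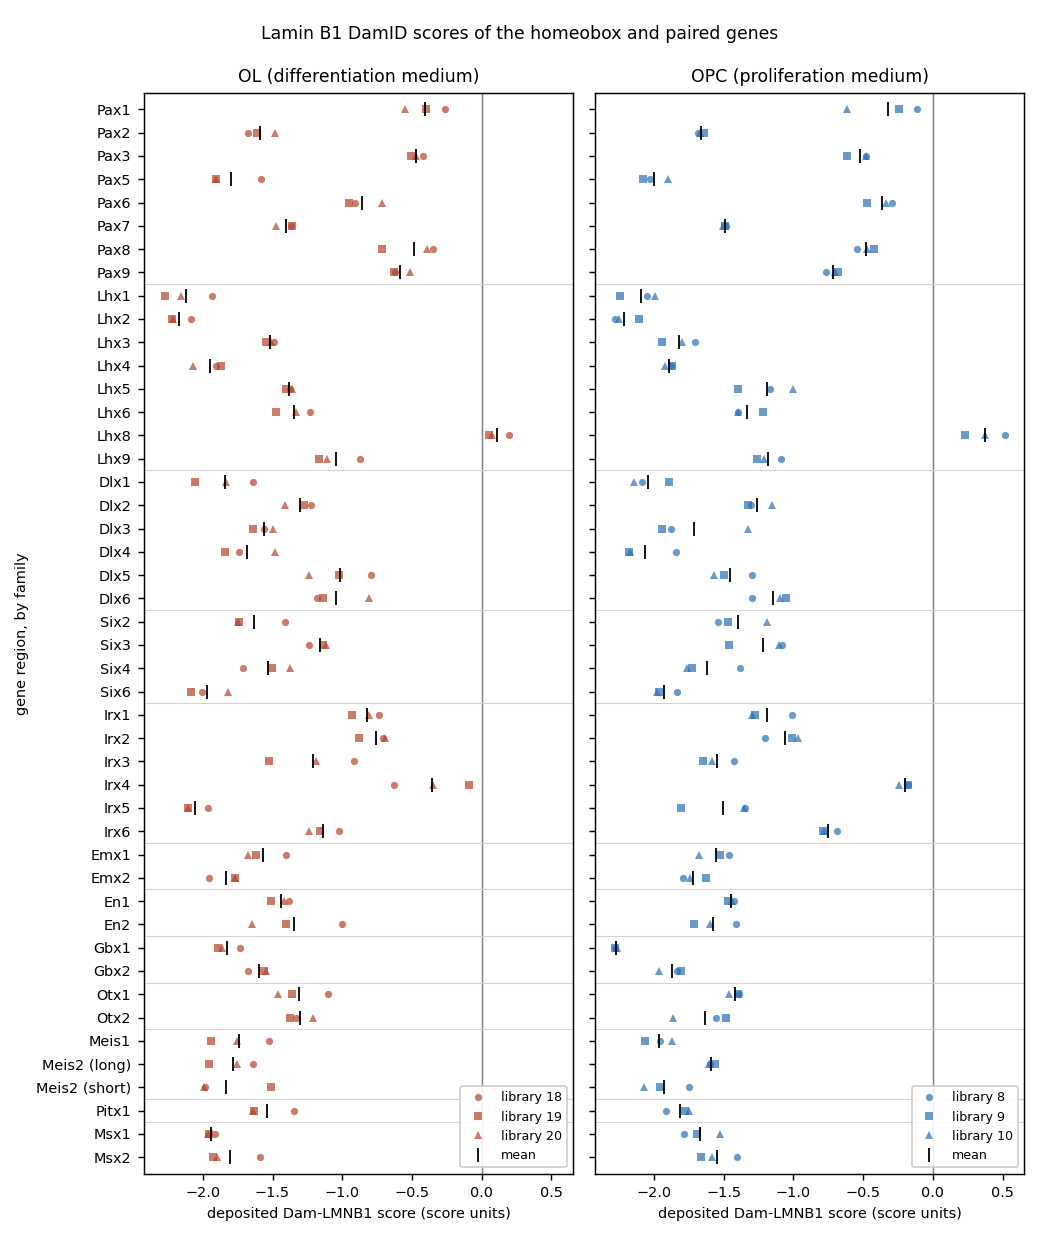
Deposited Dam-LMNB1 score (x axis, score units) of the 46 member regions (y axis, grouped by family), with OL libraries 18, 19 and 20 in the left panel and OPC libraries 8, 9 and 10 in the right panel; each point is 1 library and the bar is the mean. All regions but that of Lhx8 sit below 0 in every library, where it sits between 0.053 and 0.198 in OL and between 0.23 and 0.52 in OPC.

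Among the Pax genes, whose products share the paired domain, all 8 were below 0 in both conditions, with means from −1.80 to −0.40 in OL and from −2.002 to −0.32 in OPC. They fell into a higher set of 5 genes (Pax1, Pax3, Pax6, Pax8 and Pax9) and a lower set of 3 (Pax2, Pax5 and Pax7), a split read from the values. Pax1, a sclerotome and thymus factor (chr2:147354994-147377048), scored −0.26, −0.40 and −0.55 in OL libraries 18, 19 and 20, against −0.11, −0.25 and −0.61 in OPC libraries 8, 9 and 10. Its conditions overlapped. Pax8, a thyroid and kidney factor (chr2:24418551-24485599), scored −0.35, −0.72 and −0.40 in OL, against −0.55, −0.42 and −0.47 in OPC. Pax9, a tooth and thymus factor (chr12:56685471-56714822), scored −0.62, −0.63 and −0.52 in OL, against −0.77, −0.68 and −0.70 in OPC. The Pax9 libraries did not overlap, but the difference of 0.13 ± 0.07 (SE) did not pass the test (limma adjusted p = 0.188). Pax3, of neural crest and muscle precursors, averaged −0.47 ± 0.04 in OL and −0.53 ± 0.08 in OPC (SD, n = 3 each, as for all means below). In the lower set, Pax2, of kidney and midbrain-hindbrain boundary, averaged −1.59 ± 0.10 in OL and −1.67 ± 0.02 in OPC, and Pax5, the B-cell commitment factor, −1.80 ± 0.19 in OL and −2.002 ± 0.09 in OPC. Pax7, the muscle satellite cell factor (chr4:139736081-139842968), scored −1.37, −1.36 and −1.47 in OL, against −1.48, −1.49 and −1.51 in OPC. Its libraries did not overlap, and the difference of 0.09 ± 0.08 (SE) did not pass the test (adjusted p = 0.367, limma).

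Pax6, which directs eye and cortical progenitor development (chr2:105658896-105700410), was the Pax member that differed. It scored −0.91, −0.95 and −0.71 in OL libraries 18, 19 and 20, against −0.29, −0.48 and −0.33 in OPC libraries 8, 9 and 10. Every OL library was below every OPC library, and the difference was −0.49 ± 0.09 (SE; limma adjusted p = 4.05e-03). Its region overlaps those of Elp4 and of the long noncoding genes Paupar and Pax6os1.

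The LIM-homeobox genes, which pair a homeodomain with LIM domains for cofactor binding, held the highest member of both conditions, Lhx8, and the lowest member of OL, Lhx2. Lhx8, a factor of basal forebrain cholinergic neurons (chr3:154304294-154340560), scored 0.198, 0.053 and 0.076 in OL, against 0.52, 0.23 and 0.37 in OPC. All 6 libraries were above 0 and the conditions did not overlap. The OPC mean of 0.37 ± 0.14 passed the test against 0, whereas the OL mean of 0.11 ± 0.08 did not (limma adjusted p = 0.109), and the score fell by 0.26 in OL (SE 0.09, adjusted p = 0.0406). Lhx2, an eye and cortex factor (chr2:38341308-38371737), scored −2.08, −2.22 and −2.21 in OL, against −2.28, −2.11 and −2.25 in OPC. Lhx1, a head organizer and kidney factor (chr11:84517379-84535534), scored −1.93, −2.27 and −2.16 in OL, against −2.05, −2.24 and −1.99 in OPC. Lhx4, of pituitary and motor neurons (chr1:155699694-155752027), scored −1.91, −1.87 and −2.07 in OL, against −1.88, −1.87 and −1.92 in OPC. These 3 genes had overlapping conditions and did not pass the test between them. Lhx3, the close relative of Lhx4 with similar roles (chr2:26198212-26216575), scored −1.49, −1.54 and −1.51 in OL, against −1.71, −1.95 and −1.80 in OPC. It rose without overlap, by 0.30 ± 0.09 (SE; limma adjusted p = 0.0251). Lhx5, a forebrain factor, averaged −1.38 ± 0.02 in OL and −1.19 ± 0.20 in OPC. Lhx6, of cortical interneurons, averaged −1.35 ± 0.13 in OL and −1.34 ± 0.10 in OPC, and Lhx9, a gonad factor, −1.05 ± 0.16 in OL and −1.19 ± 0.09 in OPC.

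The 6 Dlx genes, distal-less relatives of ventral forebrain, jaw and limb, lie in 3 pairs. All 6 were below 0 in both conditions. Dlx1 and Dlx2, which specify forebrain interneurons, are 5.43 kb apart as regions on chromosome 2 but differed in level. Dlx1 (chr2:71519445-71535981) scored −1.64, −2.06 and −1.83 in OL, against −2.08, −1.89 and −2.14 in OPC. Dlx2 (chr2:71541408-71556754) scored −1.23, −1.28 and −1.41 in OL, against −1.30, −1.32 and −1.15 in OPC. Each Dlx2 library was above each Dlx1 library, and neither gene passed the test between conditions. In the pair on chromosome 6, Dlx5 (chr6:6875801-6892068), of jaw and bone, scored −0.79, −1.03 and −1.24 in OL, against −1.30, −1.501 and −1.57 in OPC. Dlx5 rose without overlap, by 0.44 ± 0.12 (SE; limma adjusted p = 0.0227). Its partner Dlx6, 5.83 kb away, averaged −1.04 ± 0.20 in OL and −1.15 ± 0.13 in OPC and did not pass the test. On chromosome 11, Dlx4 (chr11:95138447-95155801) scored −1.74, −1.84 and −1.48 in OL, against −1.84, −2.18 and −2.17 in OPC. It rose by 0.38 ± 0.13 (SE; adjusted p = 0.0431, limma). The gap between the conditions was small, since the lowest OL and the highest OPC library both round to −1.84. Dlx3, of hair and tooth, averaged −1.56 ± 0.07 in OL and −1.71 ± 0.34 in OPC.

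The Irx genes, which pattern heart, neural tube and limb, form 2 clusters of 3 and moved in both directions. All 6 were below 0 in both conditions. In the cluster on chromosome 13, Irx1 (chr13:71956232-71973723) scored −0.74, −0.93 and −0.81 in OL, against −1.01, −1.27 and −1.30 in OPC. Irx2 (chr13:72618797-72636196) scored −0.71, −0.88 and −0.69 in OL, against −1.20, −1.01 and −0.97 in OPC. Both rose without overlap, Irx1 by 0.37 ± 0.10 and Irx2 by 0.30 ± 0.09 (SE; limma adjusted p = 0.0192 for Irx1 and 0.0298 for Irx2). Irx4, a ventricular heart factor in the same cluster (chr13:73250497-73271620), scored −0.63, −0.094 and −0.35 in OL, against −0.18, −0.18 and −0.24 in OPC. Its OPC libraries lay within the OL range, and its difference of −0.16 ± 0.12 (SE) did not pass the test (adjusted p = 0.32, limma).

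In the cluster on chromosome 8, Irx5 (chr8:92347796-92363456) scored −1.96, −2.10 and −2.11 in OL, against −1.35, −1.81 and −1.36 in OPC. Irx6 (chr8:92664289-92682956) scored −1.02, −1.16 and −1.24 in OL, against −0.69, −0.79 and −0.78 in OPC. Both fell without overlap, Irx5 by 0.55 (SE 0.13) and Irx6 by 0.39 (SE 0.08), with limma adjusted p = 0.011 for Irx5 and 7.42e-03 for Irx6. The Irx5 region overlaps that of the noncoding gene Crnde, which averaged −1.90 ± 0.01 in OL and −1.37 ± 0.08 in OPC and also fell (adjusted p = 1.64e-03, limma). Irx3, the third gene of the cluster, averaged −1.21 ± 0.31 in OL and −1.55 ± 0.11 in OPC, and its difference of 0.34 ± 0.14 (SE) did not pass the test (adjusted p = 0.0895, limma). The gaps between neighbouring Irx regions were 301 kb to 645 kb, so within a cluster they share no DNA. The difference between the clusters was not tested.

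**Figure D2:**
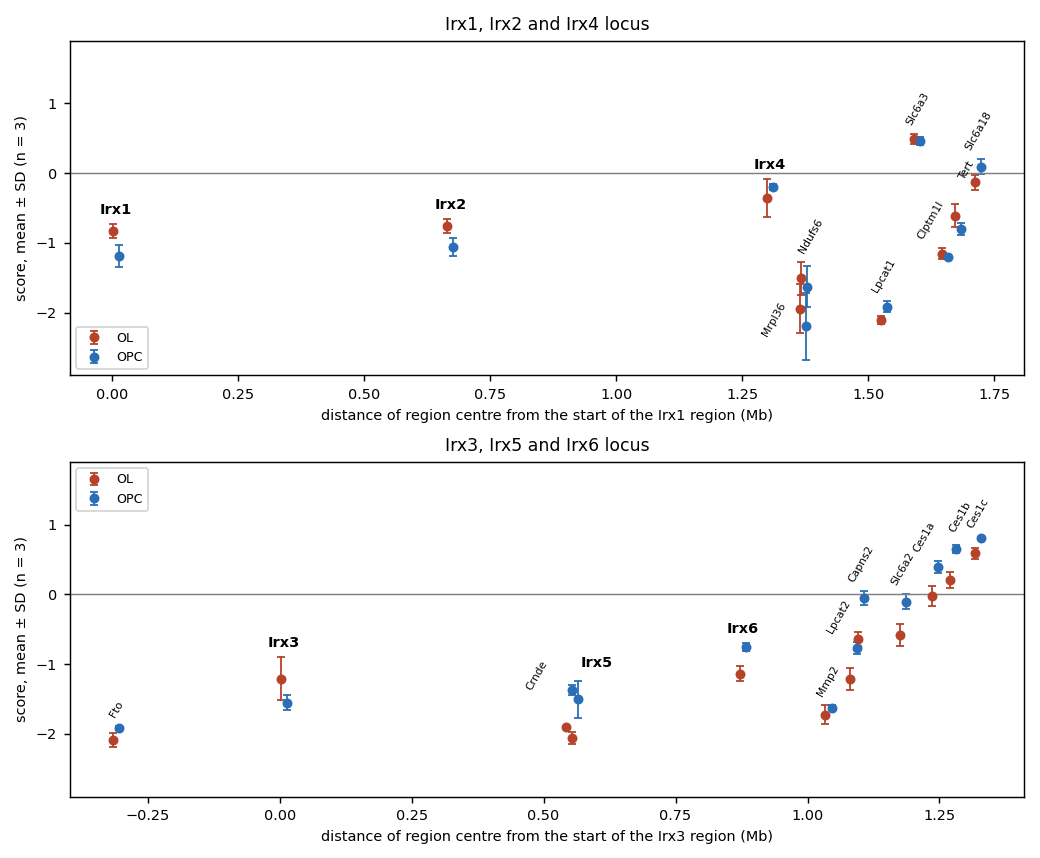
Mean score ± SD (y axis, score units, n = 3 libraries) of the gene regions around the 2 Irx clusters, in OL and OPC, against the distance of the region centre from the start of the Irx1 region (top) or the Irx3 region (bottom), in Mb. Irx1 and Irx2 sit higher in OL than in OPC. Irx5 and Irx6 sit lower, as do Crnde, Lpcat2, Capns2, Slc6a2 and the Ces1 genes near them. Mmp2, between Irx6 and Lpcat2, differed by −0.10 and did not pass the test (limma adjusted p = 0.402). Fto, beside Irx3, did not pass it either (difference −0.17, limma adjusted p = 0.144).

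Six2, Six3, Six4 and Six6, the sine oculis homeobox genes, were below 0. Six6, a retina and hypothalamus factor (chr12:72929882-72946899), scored −2.01, −2.09 and −1.82 in OL, against −1.84, −1.97 and −1.98 in OPC. Six2, of nephron progenitors, averaged −1.63 ± 0.19 in OL and −1.40 ± 0.18 in OPC. Its neighbour Six3, of anterior forebrain, averaged −1.16 ± 0.07 in OL and −1.22 ± 0.22 in OPC, and Six4, of muscle, −1.53 ± 0.17 in OL and −1.62 ± 0.21 in OPC. No gene of this family passed the test between conditions. Of the cortical Emx factors, Emx2 (chr19:59448690-59467357) scored −1.96, −1.77 and −1.77 in OL, against −1.79, −1.63 and −1.74 in OPC, and Emx1 averaged −1.57 ± 0.14 in OL and −1.56 ± 0.11 in OPC. The engrailed genes of the midbrain-hindbrain boundary averaged −1.44 ± 0.07 in OL and −1.45 ± 0.02 in OPC for En1, and −1.35 ± 0.32 in OL and −1.58 ± 0.15 in OPC for En2. No Emx or En gene passed the test between conditions.

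Both Gbx genes, gastrulation brain homeobox factors of hindbrain and spinal cord, rose. Gbx1 (chr5:24502426-24536848) scored −1.73, −1.89 and −1.87 in OL, against −2.28, −2.28 and −2.27 in OPC, a difference of 0.45 ± 0.08 (SE; limma adjusted p = 4.40e-03). Gbx2 (chr1:89925962-89941176) scored −1.68, −1.56 and −1.54 in OL, against −1.83, −1.81 and −1.96 in OPC, a difference of 0.27 ± 0.08 (SE; limma adjusted p = 0.0341). Neither gene's libraries overlapped between conditions. Otx2, of forebrain and midbrain (chr14:48655677-48672872), scored −1.33, −1.37 and −1.21 in OL, against −1.55, −1.48 and −1.87 in OPC. It rose by 0.33 ± 0.11 (SE; limma adjusted p = 0.0445), while Otx1 averaged −1.31 ± 0.19 in OL and −1.42 ± 0.04 in OPC and did not pass the test. Of the BMP-responsive Msx genes, Msx1 (chr5:37818491-37834585) scored −1.91, −1.95 and −1.96 in OL, against −1.78, −1.69 and −1.53 in OPC. Msx1 fell by 0.27 (SE 0.09, adjusted p = 0.0407, limma), and Msx2 averaged −1.80 ± 0.19 in OL and −1.55 ± 0.13 in OPC (difference −0.25 ± 0.11 SE, adjusted p = 0.113). The Hox cofactor gene Meis1 averaged −1.74 ± 0.21 in OL and −1.96 ± 0.10 in OPC. The longer Meis2 region averaged −1.78 ± 0.16 in OL and −1.59 ± 0.02 in OPC, and the shorter one −1.83 ± 0.28 in OL and −1.93 ± 0.16 in OPC. These Meis2 regions overlap, so they share DNA. Pitx1, of hindlimb and pituitary, averaged −1.54 ± 0.17 in OL and −1.81 ± 0.09 in OPC (difference 0.27 ± 0.10 SE, adjusted p = 0.064, limma).

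The second question was whether the scores of these genes changed between the conditions. In OL, 8 of the 46 regions were higher than in OPC (17.4%, against 23.0% of all regions) and 5 were lower (10.9%, against 10.9% of all regions), at a limma adjusted p under 0.05. The higher were Gbx1, Dlx5, Dlx4, Irx1, Otx2, Lhx3, Irx2 and Gbx2, and the lower were Irx5, Pax6, Irx6, Msx1 and Lhx8. These shares are near or below the background, so they are not read as a result about the members. The OL and OPC libraries did not overlap in 17 regions (37.0%), against 48.9% of all regions, and all 13 called regions were among them. Besides Pax6 and Irx5, several called regions share DNA with another region. These are Gbx1 (Agap3 and Asb10), Lhx3 (Qsox2), Dlx5 (Dlx6os1), Dlx4 (Dlx4os), Otx2 (Otx2os1) and Msx1 (Msx1os). The median difference was 0.07 over the members and 0.10 over all regions, and every member that changed stayed on its side of 0. In the authors' deposited table none of the 46 regions (0 of 46) had an adjusted p under 0.05, where 3.14% of all regions did. The lowest of the authors' deposited table was 0.0787, and 7 members had an unadjusted p under 0.05.

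With the 6 libraries brought to a common mean and SD, 3 of the 46 member regions were higher and 8 lower. Over all 21534 regions, 3330 were then higher and 3261 lower. The higher share of those calls was 50.5%, against 67.9% on the scores as deposited. These member counts are not read as a result about the members. Under that scaling 8 of the 13 calls were kept, 3 regions were newly called (Msx2, Six2 and the longer Meis2 region), and Dlx4, Gbx2, Irx2, Lhx3 and Otx2 were lost. The difference of Gbx2 was then 0.157 (adjusted p = 0.226, limma), and no called member changed its direction. The calls of Gbx1, Irx5, Irx6 and Pax6 held without any 1 of the 6 libraries (limma), and the other 9 were lost without at least 1. Without OL library 18, Dlx4, Dlx5, Irx1, Irx2, Msx1 and Otx2 were lost, with adjusted p from 0.0542 to 0.0795 (limma). Without OL library 19, Dlx5, Gbx2, Lhx3, Lhx8, Msx1 and Otx2 were lost (0.0517 to 0.102), and without OL library 20, Dlx4, Gbx2, Irx1, Irx2, Lhx3, Lhx8, Msx1 and Otx2 (0.0537 to 0.137). Without OPC library 8, Gbx2, Irx2, Lhx8 and Otx2 were lost (0.0603 to 0.135). Without OPC library 9, Dlx4, Dlx5, Gbx2, Irx1, Irx2, Lhx3 and Msx1 were lost (0.0586 to 0.13), and without OPC library 10, Dlx4, Dlx5, Gbx2, Irx1, Lhx3, Lhx8, Msx1 and Otx2 (0.0584 to 0.14). The libraries left out in turn gave 2 to 5 higher and 3 to 5 lower members, where 3136 to 4132 of all regions were higher and 1673 to 2552 lower. All p-values measure only how far these libraries differ among themselves, which may be technical spread, and leave out variation between the Dam libraries, because the scores of a condition share 1 Dam denominator.

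**Figure D3:**
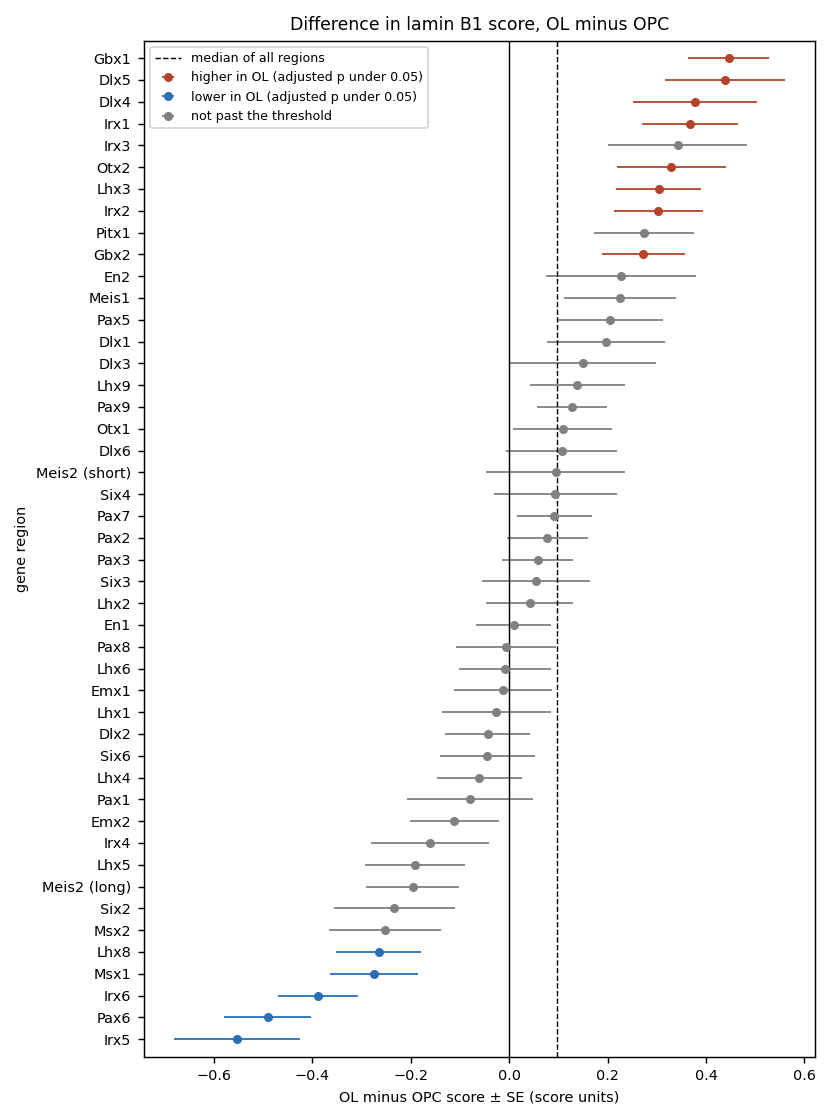
OL minus OPC score with its SE (x axis, score units) for the 46 member regions (y axis, ordered by difference); red marks regions higher and blue regions lower in OL at a limma adjusted p under 0.05, and the dashed line is the median of all regions, 0.10. Irx5, Pax6 and Irx6 lie at the low end, and Gbx1 and Dlx5 at the high end.

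The third question was how each gene compared with its surroundings. The neighbourhood was the median score of the other regions centred within 500 kb that did not overlap the gene, and the local contrast was the gene's score minus that median. The members lay in gene-poor places, with a median of 6.5 such neighbours, against 15 over all regions. In 8 of the 46 regions (17.4%, against 6.53% of all regions) there were fewer than 3 neighbours and no contrast was computed. These were Irx1, Irx2, Irx3, Irx5, Otx1, Meis1 and both Meis2 regions. Of the other 38, 16 were above their neighbourhood in OL (42.1%, against 37.9% of all regions) and 15 below (39.5%, against 37.1%; limma on the contrast). In OPC 19 of the 38 were above (against 38.1% of all regions) and 14 below (36.8%, against 37.5%). With neighbours within 250 kb, which left 22 members to test, 3 were below their neighbourhood in OL and 3 in OPC. At that width 10 were above in OL and 13 in OPC, so the near-even split depended on the window. Shares of all regions at 250 kb are not given, so these counts are not read as a result about the members. The shares above are read only against those of all regions, and the median local contrast of the members was 0.10 in OL and 0.068 in OPC.

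The members with the lowest local contrast in OL were Lhx6, Lhx9, Pax8, Emx2 and Pax9. Lhx6 (chr2:36079953-36115408) scored −1.23, −1.48 and −1.33 in OL, against −1.40, −1.22 and −1.40 in OPC. Its neighbourhood stood at 1.57 in OL and 1.804 in OPC, and 6 of its 12 neighbours were olfactory receptor genes. The window was mixed, with 7 of the 12 neighbours above 0 in each condition. The nearest region on each side was below 0, like Lhx6 itself. Ndufa8 averaged −1.99 ± 0.18 in OL and −1.94 ± 0.23 in OPC, and Mrrf −1.24 ± 0.14 in OL and −1.03 ± 0.07 in OPC. The local contrast of Lhx6 was −2.92 ± 0.24 in OL and −3.14 ± 0.20 in OPC, the lowest of the members in both conditions. Lhx9 (chr1:138828944-138852444) scored −0.87, −1.16 and −1.11 in OL, against −1.09, −1.26 and −1.21 in OPC. Its 3 neighbours had medians of 0.82 in OL and 0.41 in OPC, which gave local contrasts of −1.87 ± 0.06 in OL and −1.60 ± 0.06 in OPC. Pax8, beside a cluster of interleukin-1 family genes, had a local contrast of −1.59 ± 0.16 in OL and −1.51 ± 0.19 in OPC. Emx2 followed with −1.12 ± 0.20 in OL and −1.17 ± 0.14 in OPC, and Pax9 with −0.90 ± 0.13 in OL and −0.59 ± 0.24 in OPC. All 5 passed the test against their neighbourhood in both conditions (limma adjusted p at most 9.83e-05).

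In OL the neighbourhood of 4 members was above 0 (Lhx6, Lhx9, Pax8 and Pax9), and all 4 had a mean below 0 themselves, as did 21.1% of all regions with such a neighbourhood. In OPC the 4 were Lhx6, Lhx9, Pax8 and Pax6, again all below 0, against 20.8% of all such regions. Pax9 and Lhx9 had only 3 neighbours each. Their OL medians equalled the mean of a single region, Nkx2-9 for Pax9 (0.31) and Dennd1b for Lhx9 (0.82). The Pax9 neighbourhood stood at −0.12 in OPC. In the opposite class, with the gene above 0 in a neighbourhood below 0, Lhx8 was the 1 of 34 members in OL (2.94%, against 8.93% of all regions) and in OPC (2.94%, against 8.62%). Its window was mixed, with 4 of 10 neighbours above 0 in each condition. The nearest region on each side also had means above 0. Slc44a5 averaged 0.11 ± 0.09 in OL and 0.72 ± 0.06 in OPC, and Tyw3 0.029 ± 0.15 in OL and 0.20 ± 0.10 in OPC. The 5 members with the highest local contrast in OL were Dlx2, Pax1, Irx4, Dlx1 and Pax7. Dlx2 stood 1.11 ± 0.08 above its neighbourhood in OL and 1.22 ± 0.11 in OPC, and Dlx1 0.59 ± 0.15 in OL and 0.39 ± 0.08 in OPC. Pax1 stood 0.85 ± 0.04 above in OL and 1.13 ± 0.39 in OPC, Irx4 0.70 ± 0.10 in OL and 0.68 ± 0.08 in OPC, and Pax7 0.57 ± 0.10 in OL and 0.62 ± 0.02 in OPC. Each of these also passed the test against its neighbourhood in both conditions.

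**Figure D4:**
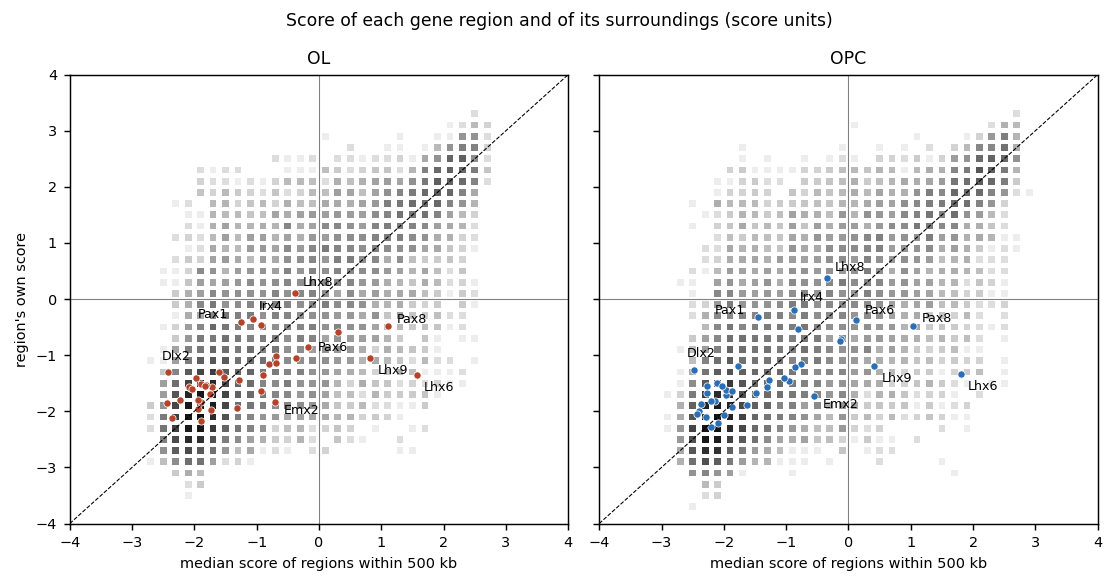
Mean score of each region (y axis) against the median score of the regions within 500 kb (x axis), both in score units, in OL (left) and OPC (right); grey squares are all regions (darker where more regions fall), coloured points the 38 members with at least 3 neighbours, and the dashed line marks equality. Lhx6, Lhx9 and Pax8 sit below 0 in neighbourhoods above 0, and Lhx8 is the only plotted member above 0.

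The local contrast itself was compared between conditions in the 38 members. It was lower in OL in 3 of them (7.89%, against 8.69% of all regions) and higher in 0 (against 7.50%), with 2 higher at an unadjusted p under 0.05 (limma). The 3 were Lhx5 (0.14 ± 0.11 in OL and 0.59 ± 0.25 in OPC, adjusted p = 0.0326), Msx1 (−0.63 ± 0.12 in OL and −0.19 ± 0.18 in OPC, adjusted p = 0.0236) and Msx2 (0.14 ± 0.10 in OL and 0.48 ± 0.14 in OPC, adjusted p = 0.039). Without OL library 18 or without OL library 20 the count was 0, and it was 1 without OL library 19 or without OPC library 10. Of the 13 members whose own score changed, 10 had a local contrast, and Msx1 was the 1 whose contrast also changed. For Gbx1 the difference in contrast was 0.13 ± 0.09 (SE) beside 0.45 in the score, as its 22 neighbours stood at −1.89 in OL and −2.21 in OPC. For Pax6 the difference in contrast was −0.20 ± 0.11 (SE) beside −0.49 in the score, and for Irx6 0.18 ± 0.11 (SE) beside −0.39. A difference in contrast that misses the threshold does not show that gene and surroundings moved alike.

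Related genes were described from lists of other homeobox genes, cofactors and Polycomb subunits. Over 117 regions of the other homeobox genes and their cofactors, 15 were above 0 in OL (12.8%, against 25.9% of all regions) and 100 below (85.5%, against 70.9%). In OPC, 15 were above 0 (12.8%, against 25.5% of all regions) and 99 below (84.6%, against 71.4%), with medians of −1.498 in OL and −1.54 in OPC. Of these, 32 were higher in OL than in OPC (27.4%, against 23.0% of all regions) and 11 lower (9.40%, against 10.9%; limma), shares near the background. Unlike the members, these lists held genes well above 0. The sine oculis homeobox proteins act with Eya phosphatases and Dach cofactors. In the list of this network, 3 of 8 were above 0 in both conditions (37.5%, against 25.9% of all regions in OL and 25.5% in OPC). Dach1 scored 2.44, 2.57 and 2.47 in OL, against 2.26, 2.26 and 2.30 in OPC, and rose by 0.22 ± 0.07 (SE; adjusted p = 0.0396, limma). Dach2 averaged 1.94 ± 0.11 in OL and 1.99 ± 0.02 in OPC, and Eya4 1.43 ± 0.06 in OL and 1.09 ± 0.03 in OPC. The largest changes there were those of Eya1 (−0.98 ± 0.06 in OL and −0.56 ± 0.02 in OPC) and Six5 (−1.17 ± 0.04 in OL and −1.51 ± 0.07 in OPC).

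The list of Isl, Lmx, Ldb and Lmo genes holds LIM-homeobox, LIM-binding and LIM-only genes. Of these 10, 1 was above 0 in OL (10.0%, against 25.9% of all regions) and 2 in OPC (20.0%, against 25.5%). Lmo3, a LIM-only protein gene, averaged 1.86 ± 0.06 in OL and 1.82 ± 0.02 in OPC. Lmx1a, of dopamine neurons and roof plate, scored −0.091, −0.31 and −0.20 in OL, against 0.33, 0.22 and 0.22 in OPC. It crossed 0 in every library, with a difference of −0.46 ± 0.08 (SE; adjusted p = 3.32e-03, limma). Lmo1 had the largest change of this list, with −1.27 ± 0.18 in OL and −1.93 ± 0.07 in OPC. The TALE genes, which include the Meis partners of the Pbx family, had 9 of 10 below 0 in each condition, with the tendon factor Mkx as the exception (0.70 ± 0.06 in OL and 0.65 ± 0.05 in OPC). Pknox1 (−2.18 ± 0.16 in OL and −2.58 ± 0.09 in OPC) and Pbx4 (−2.07 ± 0.08 in OL and −2.43 ± 0.11 in OPC) rose.

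Among 31 NK-type genes 30 were below 0 in OL and 30 in OPC, beside 70.9% of all regions in OL and 71.4% in OPC. Of these genes, 11 were higher in OL (35.5%, against 23.0% of all regions) and 1 was lower (3.23%, against 10.9%). Nkx2-9 averaged 0.31 ± 0.07 in OL and −0.079 ± 0.26 in OPC, Dbx2, of the ventral neural tube, −1.83 ± 0.13 in OL and −1.10 ± 0.03 in OPC, and Tlx3 −0.83 ± 0.16 in OL and −1.38 ± 0.17 in OPC. Of 11 Hox-like genes, Meox2 averaged 1.87 ± 0.04 in OL and 1.58 ± 0.03 in OPC. Cdx4, a posterior body factor, scored 0.84, 0.48 and 0.47 in OL, against −0.045, −0.41 and −0.52 in OPC, and so crossed 0 in every library (difference 0.92 ± 0.14 SE, adjusted p = 1.73e-03, limma). Mnx1, a motor neuron factor, averaged −1.24 ± 0.22 in OL and −1.67 ± 0.14 in OPC.

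Of 24 paired-like genes, 3 were above 0 in OL (12.5%, against 25.9% of all regions) and 4 in OPC (16.7%, against 25.5%). Among them were Isx (1.21 ± 0.22 in OL and 1.02 ± 0.07 in OPC) and Alx1 (1.14 ± 0.11 in OL and 1.02 ± 0.06 in OPC). The retinal genes Vsx1 and Crx had the largest changes. Vsx1 averaged −0.57 ± 0.12 in OL and 0.098 ± 0.01 in OPC, and Crx −0.098 ± 0.20 in OL and 0.40 ± 0.27 in OPC. Of 22 POU, Cut and related genes, 4 were above 0 in each condition (18.2%, against 25.9% of all regions in OL and 25.5% in OPC). Among them were the pituitary factor Pou1f1 (2.16 ± 0.11 in OL and 2.22 ± 0.04 in OPC) and Onecut2 (0.21 ± 0.04 in OL and 0.30 ± 0.08 in OPC). Pou4f3 (−0.61 ± 0.34 in OL and −1.30 ± 0.17 in OPC) and Pou4f2 (−1.10 ± 0.11 in OL and −1.78 ± 0.10 in OPC) rose. The remaining Pax gene, Pax4, averaged −0.57 in OL and −0.24 in OPC.

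The genes of the Polycomb machinery itself were mostly low. Of 33 regions, 30 were below 0 in OL (90.9%, against 70.9% of all regions) and 31 in OPC (93.9%, against 71.4%). In OL 10 were higher (30.3%, against 23.0% of all regions) and 2 lower (6.06%, against 10.9%). Bmi1, a subunit of Polycomb repressive complex 1, has 2 regions in the table. The region on chromosome 2, where RefSeq places the gene (chr2:18667018-18688629), averaged −1.69 ± 0.31 in OL and −1.75 ± 0.06 in OPC and did not pass the test between conditions (adjusted p = 0.735, limma). A second region under the same symbol (chrX:150218716-150236019) averaged 0.95 ± 0.21 in OL and 1.32 ± 0.13 in OPC, and it is not read as Bmi1. Without it, 30 of 32 regions were below 0 in OL and 31 in OPC, and 10 were higher and 1 lower in OL. Kdm6a, a demethylase that removes the Polycomb mark, averaged 0.30 ± 0.16 in OL and 0.070 ± 0.07 in OPC. Pcgf5, another subunit of that complex, scored 0.029, 0.085 and 0.060 in OL, against −0.50, −0.56 and −0.45 in OPC, a difference of 0.56 ± 0.07 (SE; adjusted p = 6.87e-04, limma). Phf1, a Polycomb-like protein gene, averaged −1.65 ± 0.06 in OL and −2.36 ± 0.13 in OPC. Differences between these lists and the members were not tested.

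The members lay on 13 chromosomes. The 10 regions on chromosome 2 had means from −2.17 to −0.40 in OL and from −2.21 to −0.32 in OPC, the 5 on chromosome 11 from −2.12 to −1.31 in OL and from −2.10 to −1.42 in OPC, and the 2 on chromosome 19 (Pax2 and Emx2) from −1.83 to −1.59 in OL and from −1.72 to −1.67 in OPC.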

How the data were processed

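Per the file headers, the authors deposited 1 score per gene region for each of 6 Dam-LMNB1 libraries against the Dam libraries of the same condition. They also deposited a p-value and an adjusted p-value for T3 against PF. The submitters' processing notes name BWA 0.7.17, cutadapt 1.9.1 and the build mm10. The step from reads to scores was not given in the sources consulted. Starts in the table count from 0 (50.5% of plus-strand matches lie exactly 10000 bp before the gene once 1 is added) and are printed from 1.

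limma 3.58.1 (R 4.3.3) was fitted to the scores as deposited over 21534 regions and 6 libraries, with a mean for each condition, prior variance following the mean score (trend) and no filter, and likewise to the local contrast over 20127 regions. p-values are two-sided with Benjamini-Hochberg adjustment over all regions; the threshold was 0.05. The fit was run on simulated scores with independent noise of the same SD in all regions. Such scores lack the shared Dam denominator, so that limit was not checked. Python 3.11.15 made the summaries. Genes were named by rule: members above 0, the lowest 5 in each condition, all that changed and the 5 lowest and 5 highest local contrasts; from each list, up to 4 genes above 0 and the 2 largest changes. Some genes this rule names are not reported here. Members, lists and tests were chosen with earlier results of these data known. The 5 Dam libraries were not analysed on their own.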

Additional observations from a re-analysis of the deposited data

How the results depend on the processing

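The counts against 0 held under each alternative for which they are given. These had 43 to 45 members below 0 in OL and 43 to 45 in OPC, with 0 above 0 in OL and 1 in OPC. The fit of protein-coding genes with 1 region had 44 members. Counts against 0 are not given with the authors' p per region or with a common mean and SD for the 6 libraries. The counts between conditions were less stable. Higher members numbered 8 and lower members 5, beside 4963 and 2345 of all regions. With an adjusted p under 0.01 they were 1 and 2, with no count over all regions given. With the authors' p per region adjusted over the regions used they were 0 and 0 (566 and 359 of all regions). Quantile normalization gave 4 and 7 (3348 and 3278 of all regions). A common mean and SD for the 6 libraries gave 3 and 8 (3330 and 3261 of all regions). Leaving out 1 library gave 2 to 5 higher (3136 to 4132 of all regions) and 3 to 5 lower (1673 to 2552). No called member reversed. Against the neighbourhood, 250 kb in place of 500 kb left 22 members with enough neighbours to test, against 38 before. Of the 22, 10 were above in OL (16 before) and 13 in OPC (19 before). Below were 3 in OL (15 before) and 3 in OPC (14 before), so the near-even split did not hold at 250 kb. Shares of all regions at 250 kb are not given, so these counts are not read as a result about the members. The contrast between conditions was higher in 0 members, in 1 with 250 kb and in 3 with 1 Mb. It was lower in 3, in 1 with 250 kb, in 5 with 1 Mb, in 0 at an adjusted p under 0.01 and in 0 to 2 without 1 library. The cause of these changes was not tested. No paired analysis was possible because the groups share no replicate numbers. Read depth is unknown, so counting error limits the scores to an extent that cannot be given.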
